A study of Canis lupus familiaris with 6 samples.

Results

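S100 proteins and annexins are families of calcium-binding proteins, and 8 of their genes were named for this account: S100A10, S100A6, S100A11, S100A4, ANXA1, ANXA2, ANXA5 and ANXA6. A row under its symbol was found for 7 of these 8 among the 34981 genes of the count tables, and ANXA6 was not analysed here. The 7 genes were followed in all 6 libraries, by cell class and between the punches of each experiment. They had been picked with their change between the punches already known from these same libraries, so their levels and changes are given below as description, without a test.

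The libraries came from dog neural retina, in which single cells were sequenced in 3 independent experiments named LG5, RC726 and RC724. The over-graft group (1 library per experiment) was a 5 mm retinal punch lying directly above fragments of human retinal organoid placed under the retina. The control group (1 library per experiment) was a 5 mm punch from a graft-free area. Both groups were taken 3 days after grafting from immunosuppressed dogs of normal or wild-type genotype with healthy retinas, so the control tissue had been exposed to the immunosuppression too. The organoids were grown from WA09, a human embryonic stem cell line, here with a CRX-tdTomato reporter. Tissue was digested for 10 min in 0.25% trypsin and made into 3' droplet libraries. The sources used here do not give the age of the dogs, the immunosuppressive drugs or whether the 3 experiments used separate animals, so p-values measure the spread between these 3 pairs of punches.

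S100 proteins are small EF-hand proteins that act mostly by binding a partner protein when calcium rises. Annexins bind negatively charged membrane lipids in the presence of calcium and take part in membrane repair, vesicle traffic and the tethering of actin to membranes. Several annexins carry an S100 partner: S100A10 joins ANXA2 in a complex that also binds plasminogen at the cell surface, and S100A11 binds ANXA1. In the retina Müller glia, the radial support cells that span its full depth, are known for a reactive state after injury in which cytoskeletal and stress genes are raised.

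After filtering, the 6 libraries kept 8039 to 22427 barcodes of the 8778 to 23908 deposited, with 34768162 to 60755006 UMIs deposited per library, and classes were gated by marker lists applied to clusters of cells. The classes are written as Müller glia-like, rod-like and so on, since no sort or label gives them. LG5 stood apart: its Müller glia-like cells fell in other clusters than those of RC726 and RC724. Clusters 5 and 6 scored best on the Müller glia list but missed the limits for a name, so they are not in this class. They held 524 and 1755 LG5 barcodes over the graft, and 1321 and 1941 in control. Cluster 37, with cells of RC726 and RC724, shares leading genes with cluster 5 (OTOS, DAPL1, DBI and GPX3) and was named. The class may thus cover other cells in LG5 than in RC726 and RC724. The median depth of the LG5 Müller glia-like cells was 2951.5 UMIs over the graft and 3167.5 in control. In RC724 it was 20746 UMIs over the graft and 20602 in control. Levels are CPM, the UMIs of a gene summed over the class in 1 library and scaled to a common total. Such 3' counts are not scaled by transcript length, so levels are compared between samples and classes for 1 gene at a time.

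In Müller glia-like cells, which numbered 1307 to 4410 per library over the graft and 1145 to 2950 in control, the S100 members had higher levels over the graft in every experiment. S100A6, S100A10 and S100A11 had mean log2 ratios near 2, with LG5 the highest and RC724 the lowest of the 3 experiments for each of them. The annexins ranged lower, and ANXA5 had nearly the same level in all 6 libraries.

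S100A10, which carries ANXA2 to the plasma membrane, had 599.5 CPM in LG5, 79.4 in RC726 and 161 in RC724 over the graft, against 49.1, 17.2 and 73.9 CPM in the controls of the same experiments. All libraries over the graft were above all controls, so the groups did not overlap, although the lowest value over the graft (RC726) and the highest control (RC724) were close. The log2 ratio of CPM + 1 between punches was 3.58, 2.14 and 1.11 in LG5, RC726 and RC724, with a mean of 2.28 ± 1.24 (SD, n = 3 experiments).

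S100A11, the S100 partner of ANXA1, had 271 CPM in LG5, 20.04 in RC726 and 37.2 in RC724 over the graft, against 15.9, 5.55 and 19.7 CPM in control. The groups did not overlap here either, but the RC726 library over the graft and the RC724 control were almost equal. Its log2 ratios were 4.01, 1.68 and 0.88 in LG5, RC726 and RC724 (mean 2.19 ± 1.62, SD, n = 3).

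S100A6, known as calcyclin and for binding the ubiquitin ligase adaptor CACYBP, reached 7810.3 CPM in LG5, 1104 in RC726 and 1597 in RC724 over the graft, against 651, 239 and 1307 CPM in control. The groups overlapped, because the RC724 control lay above the RC726 library over the graft. The log2 ratios were 3.58 and 2.20 in LG5 and RC726 but 0.29 in RC724, for a mean of 2.02 ± 1.65 (SD, n = 3).

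S100A4, which binds non-muscle myosin, was near the limit of counting in these cells. It had 199, 13 and 12 UMIs over the graft in LG5, RC726 and RC724, against 36, 0 and 6 UMIs in control. The levels were 13.6, 0.744 and 0.472 CPM over the graft, against 3.57, 0 and 0.284 CPM in control, so only LG5 held more than traces, and the groups overlapped. The LG5 counts lay near the background estimate described below.

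Among the annexins, ANXA1, a phospholipid-binding protein known as a mediator of glucocorticoid action, had 10.5, 6.87 and 13.4 CPM over the graft in LG5, RC726 and RC724, against 3.07, 1.43 and 10.99 CPM in control. It was higher over the graft within each experiment, with log2 ratios of 1.497, 1.69 and 0.27, while the groups overlapped through the RC724 control. ANXA2, the partner of S100A10, had 20.5, 3.78 and 9.52 CPM over the graft against 1.88, 2.20 and 9.85 CPM in control, which gives log2 ratios of 2.90, 0.58 and -0.05. ANXA2 was thus higher in LG5 and RC726 and about equal in RC724, whereas S100A10 was higher in all 3.

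ANXA5, which binds phosphatidylserine and is used as a probe of dying cells, had 44.0, 44.5 and 37.7 CPM over the graft, against 36.0, 33.2 and 41.3 CPM in control. Its mean log2 ratio was 0.19 ± 0.28 (SD, n = 3), and RC724 was lower over the graft.

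**Figure D1:**
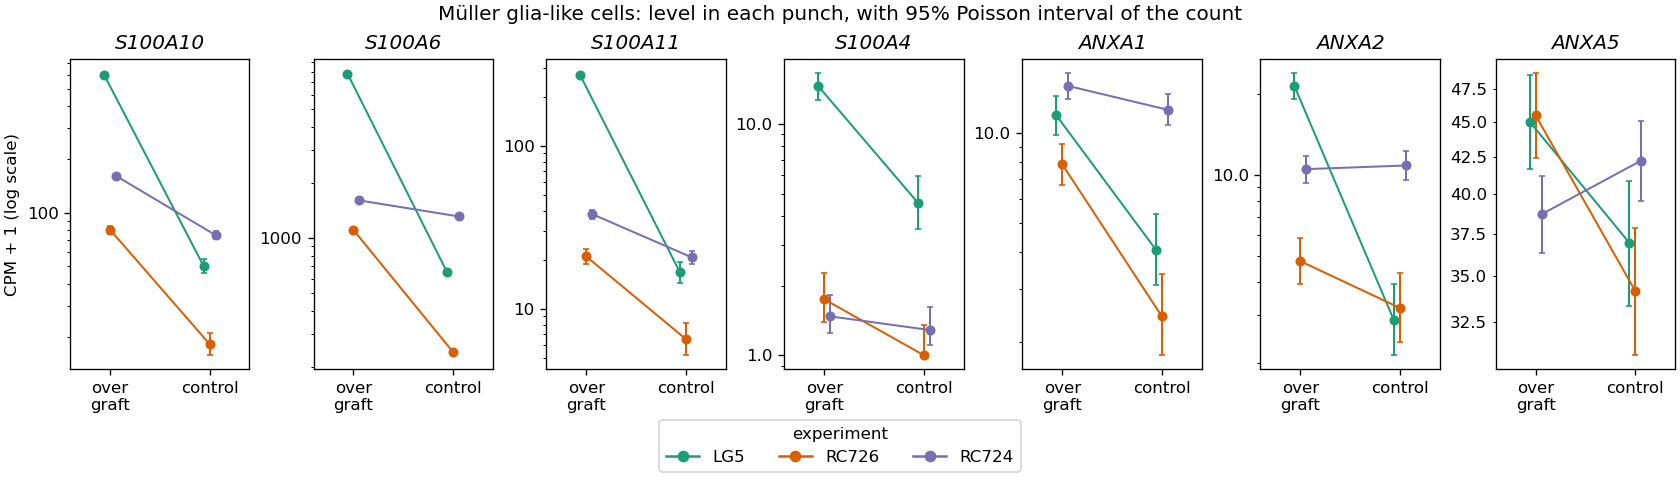
Level of each gene in Müller glia-like cells (CPM + 1, log axis with its own range in each panel), over the graft at left and control at right of each panel, with a line for each experiment and 95% Poisson intervals of the count. S100A10 and S100A11 fall to the right in all 3 lines, S100A6 is steep in LG5 and RC726 and shallow in RC724, and ANXA5 spans only 33.2 to 44.5 CPM.

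In total, 5 of the 7 genes were higher over the graft in all 3 experiments in Müller glia-like cells, and 19.8% of the 16493 genes tested there were. The groups did not overlap, with the higher values over the graft, for 2 of the 7, and for 1.92% of the tested genes. The members were chosen on this contrast, so nothing is read from these counts.

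The S100 members kept to this direction in most of the clusters that make up the class, while ANXA2 and ANXA5 were lower over the graft in some. Clusters 34 and 37 both held Müller glia-like cells of RC726 and RC724. Cluster 37 had 1956 CPM of S100A6 over the graft and 411 in control in RC726, and 3474 over the graft and 2444 in control in RC724. In cluster 34 the S100A6 level was lower, at 912 CPM over the graft and 189 in control in RC726, and 1552 over the graft and 1278 in control in RC724. The LG5 cells were in clusters 7 and 14, with 7842 CPM over the graft and 653 in control in cluster 7. Counting each cluster in each experiment with at least 20 cells of both punches, S100A6 and S100A11 were higher over the graft in 8 of 8 and S100A10 in 7 of 8, the exception being cluster 35 of RC726, with 0 CPM over the graft (47 cells) and 6.96 in control (112 cells). ANXA1 was higher in 7 of 8 and S100A4 in 6 of 8, with neither lower in any. ANXA5 was higher in 6 and lower in 2, and ANXA2 was higher in 4 and lower in 2.

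Beside these changes, the summed level of the 4 astrocyte markers in Müller glia-like cells was 312, 97.4 and 142 CPM over the graft in LG5, RC726 and RC724, against 38.1, 45.0 and 80.9 CPM in control, with PAX2 at 0 in all libraries but RC724 over the graft. The 9 microglia or macrophage markers summed to 120.3, 23.6 and 81.0 CPM over the graft, against 30.6, 21.8 and 52.6 CPM in control, with 0 to 2 of the 9 at 0 over the graft (CX3CR1 and P2RY12) and 2 to 5 in control (CX3CR1 in all 3). The 7 Müller glia markers themselves summed to 2726, 4918 and 4197 CPM over the graft, against 7069, 6291 and 3626 CPM in control. The part of these shifts in the S100 and annexin values was not tested. The UMIs counted in Müller glia-like cells exceeded those a punch-wide background scaled to rod markers would hold by 2.86 to 26.3 times for S100A6, and 1.46 to 11.7 times for S100A10. For S100A11 the same ratio ran between 0.540 in the LG5 control and 10.6 in the RC724 control, and for ANXA1 it was 0.330 to 1.71, so ANXA1 in these cells lay near the background estimate.

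Depth per cell was then held equal by thinning each cell to 1000 UMIs, which left out 71, 104 and 53 Müller glia-like cells over the graft, against 23, 50 and 18 in control, for LG5, RC726 and RC724. S100A6 was then detected in 92.1%, 51.3% and 70.0% of the cells over the graft, against 34.4%, 14.7% and 62.8% in control. Without thinning, the shares were 96.2%, 81.9% and 94.0% over the graft and 64.0%, 41.0% and 95.1% in control, so in RC724, where depth was greatest, nearly every cell had a UMI in both punches. S100A10 was detected in 34.0%, 6.34% and 14.7% of thinned cells over the graft, against 4.85%, 1.14% and 7.45% in control.

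Rod-like cells, which serve as the comparison for free RNA, showed S100A6 at the same thinned depth in 21.0%, 3.96% and 3.88% of cells over the graft, against 3.68%, 0.943% and 4.68% in control. Their median depth before thinning was 774, 1712 and 1977 UMIs over the graft and 757, 1563 and 1650.5 in control, and thinning left out 3352, 866 and 810 of them over the graft, against 3289, 983 and 822 in control. The Müller glia-like share was above the rod-like share in every library, for S100A6 as for S100A10.

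**Figure D2:**
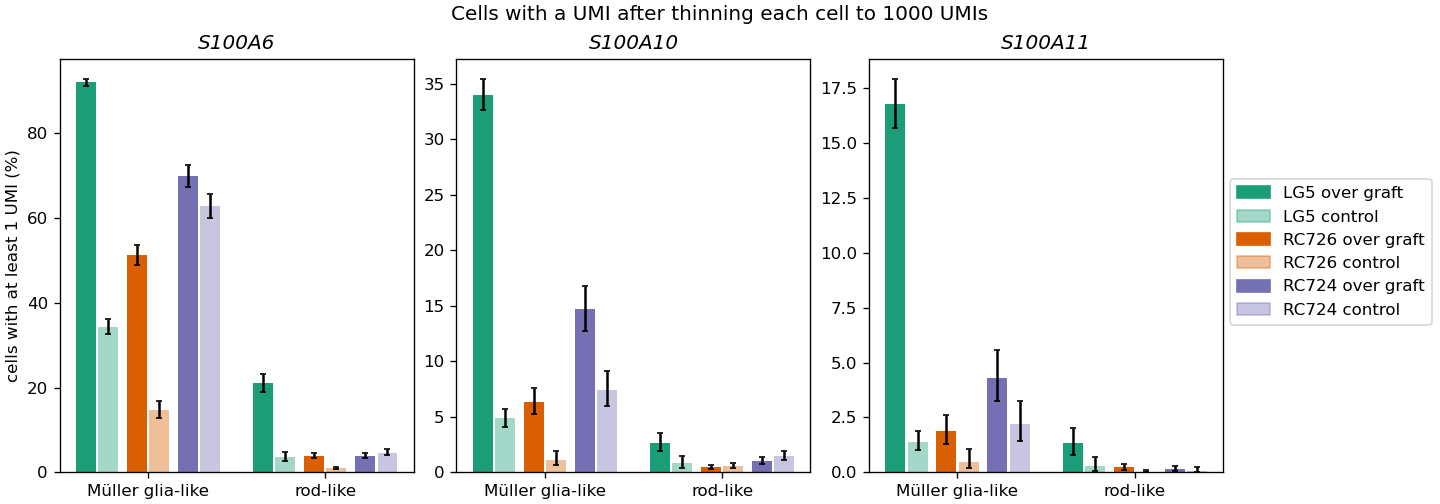
Percent of Müller glia-like and rod-like cells with at least 1 UMI of S100A6, S100A10 or S100A11 after thinning to 1000 UMIs, for each experiment with over graft (full colour) left of control (pale), and exact 95% binomial intervals that cover counting error only. In Müller glia-like cells the over-graft bar is above its control for all 3 genes and experiments, and among the S100A6 pairs that of RC724 (70.0% and 62.8%) is the closest.

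Over the whole punch, with all kept cells added together, all 7 genes had higher levels over the graft in all 3 experiments, and 19.4% of genes with a UMI did so. None of the 7 had groups free of overlap (0 of 7, against 2.81% of genes). S100A10 was at 453, 63.0 and 121 CPM over the graft in LG5, RC726 and RC724, against 84.3, 17.6 and 64.0 CPM in control. ANXA1 was at 57.8, 30.9 and 77.8 CPM over the graft, against 23.3, 11.995 and 62.1 CPM in control. In such a sum, more cells of a type and more RNA per cell cannot be told apart.

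The classes supplied these punch totals in different proportions for each gene. Müller glia-like cells held 67.0%, 75.7% and 76.5% of the S100A6 UMIs over the graft in LG5, RC726 and RC724. In control they held 37.0%, 63.5% and 75.4%. In LG5, unnamed clusters held 26.8% of the S100A6 UMIs over the graft and 57.0% in control. The CDO1 clusters described below, unnamed in LG5, held 11.4% over the graft and 34.6% in control. Clusters 5 and 6, which scored best on the Müller glia list, are also among the unnamed. The part of this naming in the LG5 shares was not tested. For S100A11 the Müller glia-like share was 25.6%, 23.0% and 41.4% over the graft and 7.01%, 11.6% and 51.4% in control. Microglia or macrophage-like cells held 44.5%, 37.2% and 21.6% of it over the graft and 74.1%, 70.6% and 7.51% in control. ANXA1 came mostly from elsewhere, since Müller glia-like cells held 3.46% to 7.93% of it in the 6 libraries.

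The largest part of ANXA1 was in a small group of clusters. Clusters 4, 32 and 44 had CDO1 and WFDC2 among their 10 leading genes. Cluster 32, with cells of RC726 and RC724, matched the astrocyte list, whereas cluster 4 of LG5 and cluster 44 matched no list well enough to be named. They are called CDO1 clusters here and were put together after their values were seen. ANXA1 is itself a leading gene of cluster 32 and S100A6 of cluster 44, so their high levels describe the clusters. ANXA1 was at 541, 570.2 and 913 CPM there over the graft, against 465, 610.4 and 1047 CPM in control. These clusters held 61.9% to 83.9% of the ANXA1 UMIs of a punch, and the level was higher over the graft in LG5 and lower in RC726 and RC724.

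S100A6 in the CDO1 clusters was at 7139, 2738 and 2667 CPM over the graft, against 5342, 1955 and 3406 CPM in control. S100A10 was at 274, 120.5 and 142 CPM over the graft, against 95.6, 58.7 and 226 CPM in control. For both genes LG5 and RC726 were higher over the graft and RC724 was lower. None of the 7 genes moved the same way in all 3 experiments in these clusters. ANXA5 ranged between 119 and 133 CPM over the graft and between 106 and 139 CPM in control, and ANXA2 between 62.8 and 78.6 CPM over the graft and between 50.4 and 93.2 CPM in control.

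**Figure D3:**
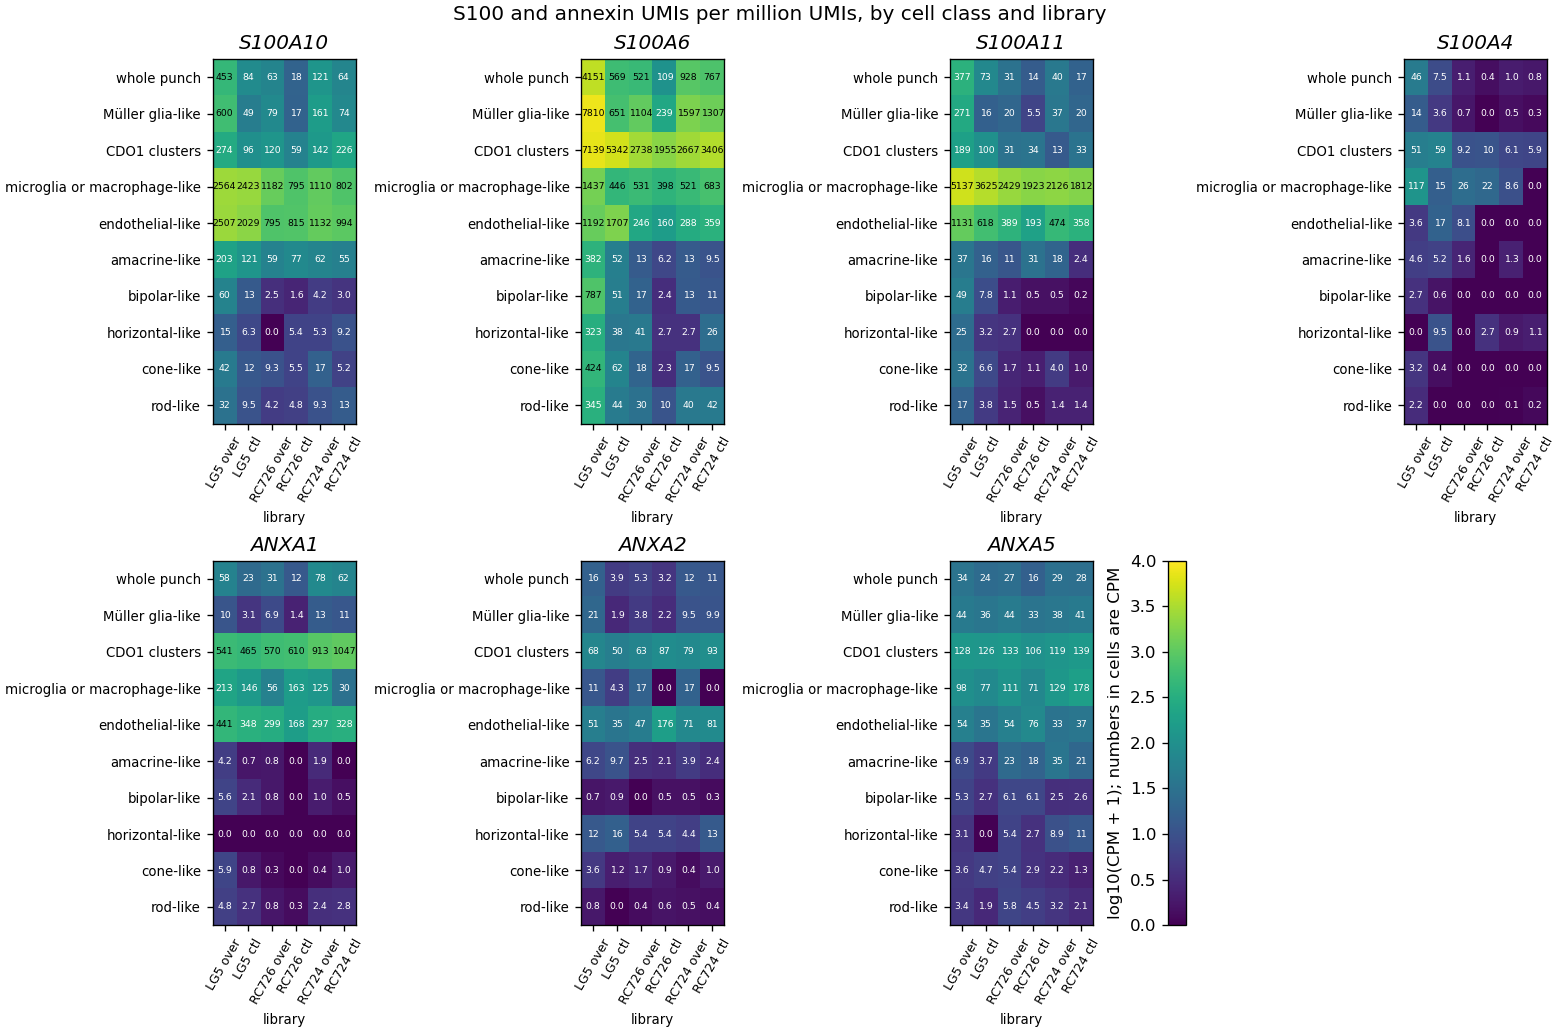
CPM of the 7 genes in each cell class (rows) and library (columns, over the graft left of control for each experiment), coloured by log10(CPM + 1). S100A6 and ANXA1 are highest in the CDO1 clusters in most libraries, S100A11 in microglia or macrophage-like cells, and S100A10 in microglia or macrophage-like and endothelial-like cells.

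Microglia or macrophage-like cells, few in RC726 and RC724 (45 and 23 over the graft, 24 and 11 in control), had the highest S100A11 of the named classes in each library. Its level there was 5137, 2429 and 2126 CPM over the graft in LG5, RC726 and RC724, against 3625, 1923 and 1812 CPM in control. S100A10 was at 2564, 1182 and 1110.3 CPM over the graft, against 2423, 795 and 802 CPM in control. Both were higher over the graft in each experiment, and both groups overlapped. The RC724 control sum was small, with 27 UMIs of S100A10 and 61 of S100A11. Rod markers stood there at 87.4% of their punch share, against 16.8% in RC724 over the graft. The RC724 punches are thus not alike in RNA from other cells, and the part of this in the RC724 difference was not tested.

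Endothelial-like cells (28 to 42 cells per library over the graft, 11 to 25 in control) had S100A10 at 2507, 795 and 1132 CPM over the graft, against 2029, 815 and 994 CPM in control. The 2 groups covered nearly the same range. Endothelial-like levels depended on how the cells were chosen: when each barcode was gated by the marker lists, which took 78 to 471 cells per library, S100A10 averaged 659 CPM in the cells over the graft, against 284 CPM in control cells. With clusters these means were 1478 CPM over the graft, against 1279 CPM in control. ANXA1 in these cells was at 441, 299 and 297 CPM over the graft, against 348, 168 and 328 CPM in control, and with barcodes gated singly its means were 132 CPM over the graft, against 67.2 CPM in control.

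The highest S100A4 levels were in classes with few cells. The T or NK-like cells of LG5 over the graft (213 cells) had 1097 CPM, while the LG5 control held 4 such cells with no S100A4 UMI. The ganglion-like cells of LG5 had 419.6 CPM over the graft (105 cells) and 358 CPM in control (33 cells), and the other libraries held at most 3 ganglion-like cells each. In rod-like cells S100A4 was at 0 to 2.20 CPM over the graft and 0 to 0.214 CPM in control.

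The classes with at least 10 cells in every library were ordered by their control ranges, which leaves out T or NK-like and ganglion-like cells. S100A6 was highest in the CDO1 clusters (1955 to 5342 CPM), then in Müller glia-like (239 to 1307), endothelial-like (159.6 to 1707) and microglia or macrophage-like cells (398 to 683), whose ranges overlap one another. The 5 neuron classes tested lay below, between 2.299 and 62.1 CPM, with overlapping ranges. S100A10 in control was at 795 to 2423 CPM in microglia or macrophage-like cells and 815 to 2029 in endothelial-like cells, which do not differ beyond their spread. Of the classes so ordered, next came the CDO1 clusters (58.7 to 226) and amacrine-like cells (54.7 to 121), whose ranges overlap that of Müller glia-like cells (17.2 to 73.9). Outside this order, S100A10 was at 358 CPM in the 33 ganglion-like cells of the LG5 control, and at 4 and 2 UMIs in the 4 and 3 T or NK-like cells of the LG5 and RC724 controls. For ANXA5 the control levels were 106 to 139 CPM in the CDO1 clusters, 70.8 to 178 in microglia or macrophage-like, 34.8 to 75.6 in endothelial-like and 33.2 to 41.3 in Müller glia-like cells, each range overlapping that of its neighbour in this order.

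The neuron classes likewise had more S100A6 over the graft in the LG5 and RC726 experiments. In bipolar-like cells it was at 787, 17.4 and 12.7 CPM over the graft in LG5, RC726 and RC724, against 50.8, 2.38 and 11.2 CPM in control. In rod-like cells it was at 345, 30.4 and 39.9 CPM over the graft, against 44.5, 10.0 and 41.7 CPM in control. Cone-like cells had 424, 18.3 and 16.5 CPM over the graft, against 62.1, 2.299 and 9.48 CPM in control.

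RC724 was the lowest of the 3 ratios in each of these classes, as in Müller glia-like cells. Amacrine-like cells had 382, 13.1 and 12.98 CPM over the graft, against 52.1, 6.23 and 9.51 CPM in control. Horizontal-like cells gave no single direction, with 323, 40.8 and 2.67 CPM over the graft and 37.8, 2.71 and 26.4 CPM in control.

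These neuron values were set beside the free RNA of each library, using the 7 Müller glia markers as its gauge. The share of Müller glia markers in a class, divided by their share in the punch, was multiplied by the punch level of each gene. This gives the UMIs that RNA of the whole punch would bring at that share, here called the Müller glia gauge. For a gene held mostly by other classes, such as ANXA1, the gauge is more than Müller glia RNA alone would bring. S100A6 UMIs were 1.11 to 1.69 times this number in rod-like cells across the 6 libraries. The ratio was 0.535 to 1.21 in bipolar-like, 0.485 to 1.13 in cone-like, 0.0809 to 0.718 in amacrine-like and 0.0795 to 1.46 in horizontal-like cells. In LG5 the Müller glia markers themselves stood at 16.1% of their punch share in bipolar-like cells over the graft, against 7.34% in control. S100A6 in the 4 classes other than rods was therefore at or below the gauge of the same sums, to within 1.46 times.

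S100A10 in amacrine-like cells was above this gauge in all 6 libraries. It was at 203, 59.1 and 62.3 CPM over the graft, against 121, 76.8 and 54.7 CPM in control, with 1.60 to 28.9 times the UMIs of the gauge. There was no common direction, as RC726 was lower over the graft. ANXA2 in horizontal-like cells, at 4.45 to 12.3 CPM over the graft and 5.43 to 15.8 CPM in control, was 4.02 to 39.6 times its gauge, and the groups overlapped. These ratios rest on few counts, with 4, 2 and 5 UMIs over the graft in LG5, RC726 and RC724, against 5, 2 and 11 in control. ANXA5 in rod-like cells was 1.33 to 5.23 times its gauge at 3.19 to 5.83 CPM over the graft and 1.90 to 4.49 CPM in control.

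S100A11 was below or near the gauge in rod-like cells (0.611 to 1.91 times), bipolar-like cells (0.377 to 1.45 times) and horizontal-like cells (0 to 1.62 times). It ranged further in cone-like cells (0.559 to 4.28 times) and amacrine-like cells (0.347 to 14.9 times). S100A10 in cone-like cells (0.605 to 9.24 times) and ANXA5 in amacrine-like cells (0.726 to 11.8 times) also lay on both sides of the gauge. ANXA1 had 0 UMIs in horizontal-like cells of all 6 libraries and at most 5.93 CPM in the other neuron classes tested.

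**Figure D4:**
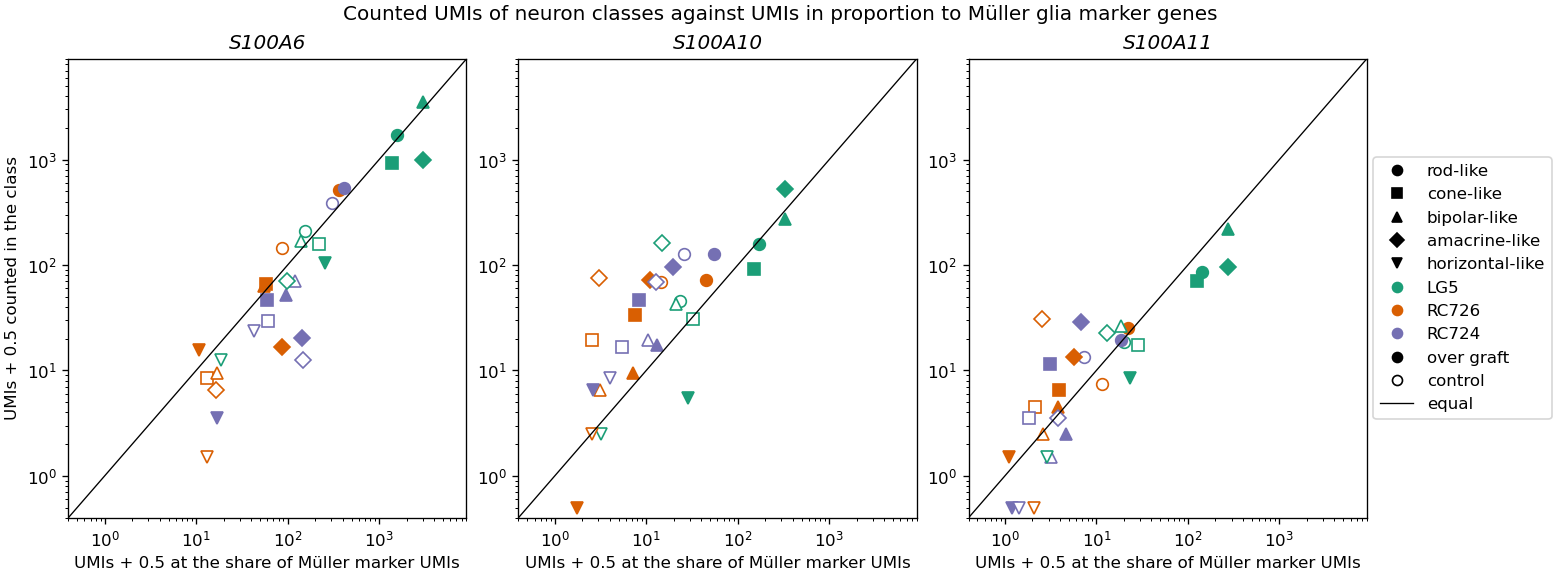
UMIs counted in each neuron class and library (vertical, log axis) against the UMIs expected from the Müller glia markers in the same sum (horizontal, log axis), 0.5 added to both, with filled symbols over the graft and open symbols in control. S100A6 follows or lies below the line of equality, with the rod-like points at 1.11 to 1.69 times it, while the amacrine-like points of S100A10 lie above it.

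The low-count filter of edgeR kept all 7 members in Müller glia-like cells, 5 in rod-like, 4 in cone-like, 4 in amacrine-like, 3 in bipolar-like and 1 in horizontal-like cells. As they were chosen on this contrast, no test of them is given.

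**Figure D5:**
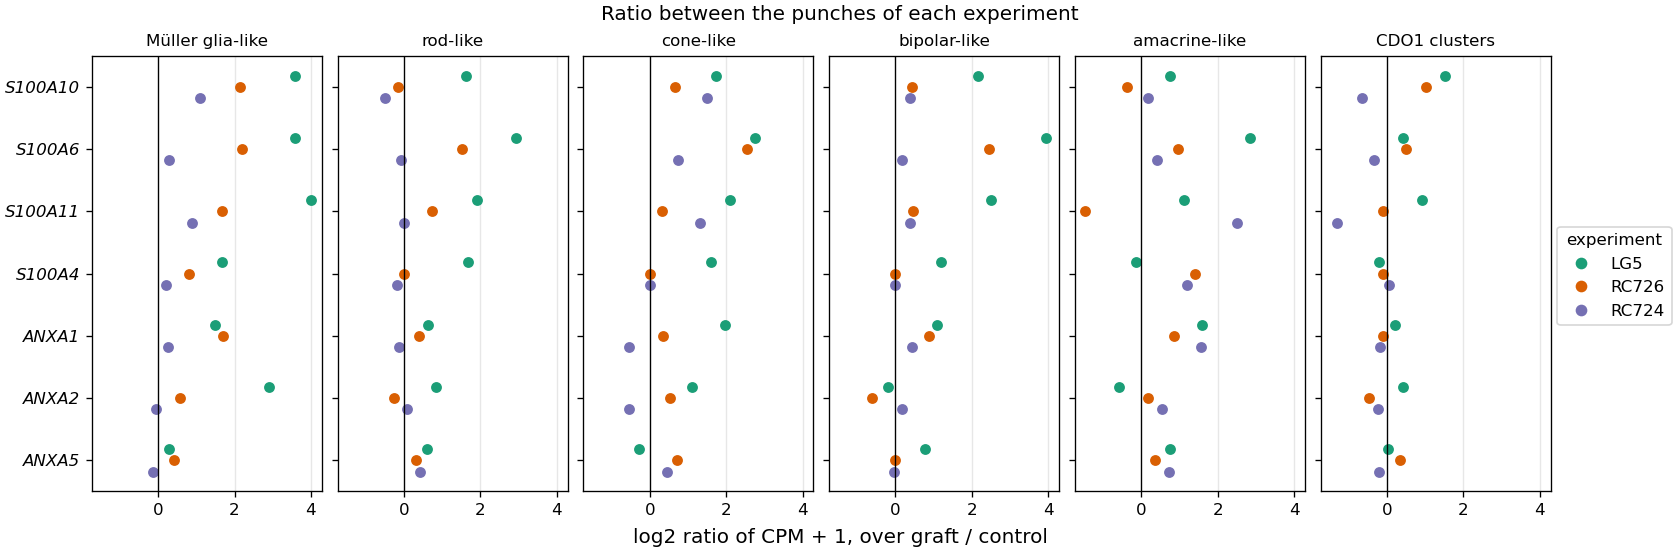
Log2 ratio of CPM + 1, over graft against control, for each gene (rows), class (panels) and experiment (colour). In Müller glia-like cells S100A10 is at 3.58, 2.14 and 1.11 and S100A11 at 4.01, 1.68 and 0.88, and in the CDO1 clusters every gene has points on both sides of 0.

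The remaining S100 genes were tested over all genes. They were not among the members, but this list and those that follow were drawn up with earlier results of these data known. Their p-values are not independent of that knowledge. The test was edgeR's quasi-likelihood fit with the experiment as a block and an adjusted p of 0.05. Over all genes it called 11.2% higher over the graft and 10.7% lower in rod-like cells, 2.38% higher and 1.1% lower in cone-like, and 0.404% higher and 0.174% lower in bipolar-like cells. In amacrine-like cells it called 0.222% higher and 0.128% lower, in Müller glia-like 0.0364% higher and 0.00606% lower, and in horizontal-like 0.0498% higher and 0% lower. Every edgeR call given for them and for the lists that follow rests on the block for the experiment, because without it 0 genes were called in each class. The 15 listed were S100A1, S100A2, S100A3, S100A5, S100A7, S100A8, S100A9, S100A12, S100A13, S100A14, S100A16, S100B, S100G, S100P and S100Z, of which 14 had a row. In rod-like cells 3 of them passed the low-count filter and 2 rose over the graft, where 11.2% of all tested genes rose, with a median log2 change of 0.65 over the 3 and -0.000177 over all genes tested. S100A1, a calcium sensor of muscle and nerve, was at 186, 37.5 and 36.7 CPM over the graft in LG5, RC726 and RC724, against 59.0, 16.1 and 28.0 CPM in control. It was higher in 3 of 3 experiments (log2 change 1.08 ± 0.18 SE, edgeR adjusted p = 0.00217), though the groups overlapped.

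S100A1 in rod-like cells had 1.42 to 2.76 times the UMIs of the Müller glia gauge, with the larger ratio over the graft in each experiment. S100A13, which helps export growth factors that lack a signal peptide, was at 103, 31.0 and 20.2 CPM over the graft, against 48.5, 21.3 and 19.4 CPM in control (0.55 ± 0.16 SE, edgeR adjusted p = 0.0292). Its call was lost without LG5, where the log2 change was 0.32, in DESeq2 (0.54) and when each barcode was gated (0.44). S100A1 also rose in cone-like cells (1.07, edgeR adjusted p = 0.0124) and bipolar-like cells (1.504, edgeR adjusted p = 0.0162), at 0.502 to 1.70 and 0.613 to 1.66 times the gauge. The cone-like call was lost without LG5 (1.24), without RC724 (1.18) and when each barcode was gated (1.29). The bipolar-like call was lost without LG5 (0.69), with each barcode gated (1.09) and under the stricter barcode filter (1.60). After subtraction of free RNA S100A1 was not among the genes tested in either class, and 0 genes were called there. That subtraction was scaled to rod markers in these classes. Its estimate was 100% of the UMIs of cone-like cells in both LG5 libraries, and 99.6% in bipolar-like cells of LG5 over the graft. In these sums it cannot tell free RNA from the cells' own RNA, so the lost calls are not read.

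Among the Müller glia-like sums 0 of the 6 other S100 genes tested passed in edgeR, 2 had an unadjusted p under 0.05, and their median log2 change was 0.31 against -0.01 over all genes. Over all genes tested in these sums, 2061 of 16493 had an unadjusted p under 0.05. S100A1 had a mean of 936 ± 469 CPM over the graft, against 735 ± 229 CPM in control (SD, n = 3 each). S100A13 had 295 ± 164 CPM over the graft, against 216 ± 61.6 CPM in control, and S100A16 had 66.0 ± 14.5 CPM over the graft, against 49.2 ± 7.04 CPM in control. In LG5 and RC726 the levels of S100A1 and S100A13 were higher over the graft, in RC724 lower, and S100A16 was higher in all 3 (log2 ratios 0.67, 0.32 and 0.23).

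Of 9 other annexins listed (ANXA3, ANXA4, ANXA7, ANXA8, ANXA8L1, ANXA9, ANXA10, ANXA11 and ANXA13), 8 had a row and 2 to 5 were tested in each class but horizontal-like cells, where 0 were. ANXA3 in cone-like cells was at 33.3, 27.3 and 24.5 CPM over the graft, against 53.5, 45.7 and 45.1 CPM in control. All 3 libraries over the graft were below all controls, and the fall was -0.81 ± 0.15 SE on the log2 scale (edgeR adjusted p = 0.0125). The share of all genes with groups so apart was not counted in cone-like cells. ANXA3 in these cells had 14.2 to 183 times the UMIs of the Müller glia gauge. The call was lost without RC724, at -0.77, in DESeq2, at -0.81, and with free RNA subtracted, at -1.07. The loss with free RNA subtracted is not read, as the estimate took 100% of the cone-like UMIs in LG5.

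Of the other annexins tested in Müller glia-like cells 0 of 5 passed in edgeR, with a median log2 change of 0.39. An unadjusted p under 0.05 was found for 1 of them, beside 2061 of the 16493 genes tested. ANXA11, a partner of S100A6, had a mean of 33.8 ± 8.48 CPM over the graft, against 26.4 ± 11.7 CPM in control, and ANXA7 had 23.7 ± 2.78 CPM over the graft, against 22.5 ± 1.19 CPM in control (SD, n = 3 each). In rod-like cells 0 of 4 passed, with 0 called by DESeq2. An unadjusted p under 0.05 was found for 0 of them, beside 5271 of the 14996 genes tested. ANXA7 had 28.3 ± 6.16 CPM there over the graft, against 24.2 ± 7.28 CPM in control (SD, n = 3 each).

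Membrane repair and membrane-to-actin linkage, in which annexins and S100 proteins take part, gave some calls in rod-like cells. Of 19 such genes, 13 were tested there, 4 rose and 0 fell (median log2 change 0.45), beside 11.2% higher and 10.7% lower over all genes. EZR, which encodes ezrin, a linker of membrane and actin, was at 979.6, 141 and 251 CPM over the graft, against 70.2, 41.6 and 37.3 CPM in control (2.74 ± 0.28 SE, edgeR adjusted p = 0.000137). RDX, for the related linker radixin, was at 311, 224 and 319 CPM over the graft, against 135, 127 and 136 CPM in control (1.06 ± 0.12 SE, edgeR adjusted p = 0.000201). For both, all libraries over the graft were above all controls. The share of all genes for which this held was not counted in rod-like cells.

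The other calls were PLSCR1, a calcium-binding phospholipid scramblase (0.74, edgeR adjusted p = 0.00256), and CHMP4B, a subunit of the ESCRT machinery that seals membranes (0.54, edgeR adjusted p = 0.0123). EZR rose in cone-like cells as well (1.38, edgeR adjusted p = 0.0168) and in amacrine-like cells (2.68, edgeR adjusted p = 0.00249). In amacrine-like cells EZR was at 0.0524 to 0.908 times the Müller glia gauge, and in rod-like cells at 2.95 to 23.5 times. For Müller glia-like cells 0 of 18 passed in edgeR and the median log2 change was 0.30. An unadjusted p under 0.05 was found for 4 of them, beside 2061 of the 16493 genes tested. DESeq2 called 1 of the 18, beside 258 of all 16493.

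That 1 gene was AHNAK, a large scaffold protein that the S100A10-ANXA2 complex binds at the membrane, and it is named here after its values were seen. AHNAK was at 21.3, 25.6 and 28.2 CPM over the graft in LG5, RC726 and RC724, against 8.62, 8.70 and 19.7 CPM in control. All libraries over the graft were above all controls (log2 change 1.08 ± 0.23 SE, edgeR adjusted p = 0.134), as for 1.92% of the genes tested in Müller glia-like cells. DESeq2 called 0 genes of the other lists in Müller glia-like cells.

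Plasminogen activation, which the S100A10-ANXA2 complex serves, was covered by 10 genes, of which 4 were tested in rod-like cells. In these cells 11.2% of all tested genes rose. PLGRKT, a plasminogen receptor of the plasma membrane, rose by 0.66 ± 0.15 SE (edgeR adjusted p = 0.00939), and ENO1, a glycolytic enzyme that also binds plasminogen, rose by 0.66 ± 0.15 SE (edgeR adjusted p = 0.00889). Of 7 tested in Müller glia-like cells 0 passed in edgeR, with a median log2 change of 0.30. An unadjusted p under 0.05 was found for 1 of them, beside 2061 of the 16493 genes tested. In cone-like, bipolar-like, amacrine-like and horizontal-like cells 0 of 2, 0 of 4, 0 of 3 and 0 of 2 passed, and the unadjusted p was under 0.05 for 1 gene of them, in amacrine-like cells, and DESeq2 called 0. Over all genes tested in amacrine-like cells, 925 of 11704 had an unadjusted p under 0.05.

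Direct partners and receptors of the 2 families made a list of 16 genes, with 7 tested in rod-like cells, where 11.2% of all tested genes rose. HSP90AA1, a chaperone, was at 27037, 5019 and 7964 CPM over the graft, against 6499, 2014 and 1879 CPM in control (1.80 ± 0.23 SE, edgeR adjusted p = 0.000382). MYH9, the myosin heavy chain that S100A4 binds, rose by 0.77 ± 0.18 SE (edgeR adjusted p = 0.0110) and CACYBP, the partner of S100A6, by 0.38 ± 0.11 SE (edgeR adjusted p = 0.0332). HSP90AA1 also rose in cone-like cells (1.09, edgeR adjusted p = 0.0243). None of 7 in Müller glia-like cells passed in edgeR (0, with 0 at an unadjusted p under 0.05, beside 2061 of the 16493 genes tested).

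Leaving out RC724 ended the rod-like calls of CHMP4B (0.59), PLGRKT (0.63), ENO1 (0.53), HSP90AA1 (1.64), MYH9 (0.65) and CACYBP (0.38), and the cone-like calls of EZR (1.52) and HSP90AA1 (1.08). The CACYBP call was also lost without LG5 (0.30) and without RC726 (0.43), and the amacrine-like EZR call without LG5 (1.79). In DESeq2 the calls of CACYBP in rod-like cells (0.37) and of EZR in cone-like cells (1.36) were lost too, and gating each barcode ended the rod-like calls of ENO1 (0.46) and CACYBP (0.36). With free RNA subtracted the cone-like calls of EZR (4.15) and HSP90AA1 (1.17) were lost, and EZR was not among the genes tested in amacrine-like cells. The free RNA estimate was 100% in cone-like cells of both LG5 libraries, so nothing is read from the cone-like losses or values. The rod-like calls of EZR, RDX, PLSCR1 and S100A1 were kept with each experiment left out in turn.

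Across 24 sums of the control libraries by class, which cover 10 classes and share libraries and depth, each member was set beside the 13650 genes with at least 20 CPM in one sum. S100A6 was most like MT2A, a metallothionein (Pearson r 0.946 of log2(CPM + 1)), with HOPX and ECRG4 at 0.943. ANXA1 was most like CRIP1 (0.955), then MYH9 (0.951) and SAMD9L (0.946). S100A10 was most like TICAM1 (0.924), ST6GAL1 (0.919) and EGR3 (0.916), and S100A11 like FXYD5 (0.931), HBEGF (0.927) and PHF19 (0.923).

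The other 3 were ANXA5, nearest to FOSB (0.933), FOSL2 (0.919) and PSMB9 (0.901), ANXA2, nearest to BCAM (0.894), PHLDB1 (0.861) and AFAP1L2 (0.857), and S100A4, nearest to DUSP3 (0.861), LPAR3 (0.835) and LOC119866377 (0.824). Within the set, S100A10 and S100A11 had an r of 0.829 and S100A6 and ANXA1 of 0.803, while the known pairs S100A10 with ANXA2 and S100A11 with ANXA1 had 0.442 and 0.765. In the RefSeq table of the assembly UU_Cfam_GSD_1.0, S100A10 and S100A11 lie next to each other, on another chromosome than the S100 cluster that holds S100A6 and S100A4.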

How the data were processed

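The 6 single-cell libraries of dog retina (3 over the graft, 3 controls) were deposited by the authors as unnormalized UMI counts of each gene in each barcode, from Cell Ranger 6.0.2 (both LG5 libraries), 7.1.0 (RC726 over the graft and both RC724 libraries) and 7.0.0 (RC726 control), per the file headers. Both RC726 punches thus differ in software version. The barcode lists are filtered, with no barcode under 500 UMIs. Genome build, annotation, use of intron reads and any separation of human from dog sequences were not given in the sources used here, so reads of human graft RNA cannot be told apart from host reads. 0 sample columns were left out. Any 2 libraries shared 0.194% to 0.677% of the barcodes of the smaller one.

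Kept barcodes had 300 or more genes and no more than 20% mitochondrial UMIs (13 genes). Scrublet's automatic threshold marked at most 0.0351% of a library, so the top 6% by doublet score were removed instead. Cells were clustered over all libraries with scanpy 1.11.5 and leidenalg 0.10.2 (Python 3.11.15; 30 principal components, 20 neighbours, resolution 1.5), and 37 of 52 clusters were named from marker lists that hold no S100 or annexin gene. A name needed a mean log2 enrichment of 1.1 within an experiment (pseudocount 20 CPM), a margin of 0.5 over the next list and at least 3 markers; these limits and the 6% were chosen with the data in view. The names rest on clusters rebuilt here and not on an annotation by the authors.

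UMIs were summed per library and class, and levels are CPM of these sums. Intervals cover counting error only. The 6 classes with at least 20 cells in all 6 libraries were tested over all genes with edgeR 4.0.16 (quasi-likelihood, filterByExpr, TMM, Benjamini-Hochberg at 0.05) under R 4.3.3 and a block for the experiment. This fit was also run on simulated data, with an outcome that is not given here. The p-values measure the spread between these 3 pairs of punches. The libraries are paired because each experiment took both punches from one retina, per the series' design text; the deviations of paired libraries correlated by 0.879 to 0.943 in rod-like and 0.819 to 0.909 in Müller glia-like cells. DESeq2 1.42.0 was an alternative. Ratios use a pseudocount of 1 CPM. Figures were drawn with matplotlib 3.10.9. Of 34981 gene names, 33363 match the RefSeq table of UU_Cfam_GSD_1.0.

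The members, the 5 gene lists and the tests were chosen with earlier results of these data known. The text names the members in every tested class, up to 6 genes of each list past the threshold per class, the members of the 2 family lists with a mean of at least 20 CPM in Müller glia-like or rod-like cells, and for each member the 3 genes with the highest Pearson r. Values of other classes and the CDO1 clusters were added after they were seen, as was AHNAK.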

Additional observations from a re-analysis of the deposited data

How the results depend on the processing

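With each experiment as a block, edgeR called 7 genes in Müller glia-like, 41 in amacrine-like, 73 in bipolar-like, 405 in cone-like, 3 in horizontal-like and 3290 in rod-like cells, and 0, 1, 1, 4, 0 and 11 of the genes on the 5 lists. Without the replicate block, 0 genes and 0 listed genes were called in each class, so every call rests on the pairing of the punches. DESeq2 called 258 genes and 1 listed gene in Müller glia-like, 20 genes in amacrine-like, and 268 genes and 2 listed genes in cone-like cells. RLE size factors gave 11 genes in Müller glia-like cells. With no low-count filter, 650, 231, 479, 994 and 94 genes were called in Müller glia-like, amacrine-like, bipolar-like, cone-like and horizontal-like cells, with 3 listed genes in Müller glia-like, 3 in amacrine-like and 4 in bipolar-like cells. Leaving out 1 experiment at a time gave 3 to 291 genes in Müller glia-like, 20 to 139 in amacrine-like, 61 to 204 in bipolar-like, 46 to 795 in cone-like, 0 to 45 in horizontal-like and 801 to 2694 in rod-like cells. The listed genes called then ranged over 0 to 2 in Müller glia-like, 0 to 2 in amacrine-like, 0 to 3 in bipolar-like, 0 to 4 in cone-like, 0 to 2 in horizontal-like and 5 to 10 in rod-like cells. Gating each barcode by the marker lists gave 65 genes in Müller glia-like, 37 in bipolar-like and 238 in cone-like cells, with 2 listed genes in amacrine-like and 0 in bipolar-like cells. It also moved 17 mean levels of members by more than 1 SD and left 95 within it, and the moved ones lay in endothelial-like, horizontal-like, microglia or macrophage-like, cone-like and amacrine-like cells. Subtracting free RNA left 0 genes in Müller glia-like, amacrine-like, bipolar-like and cone-like cells and 1 in horizontal-like cells, with 0 listed genes in amacrine-like, bipolar-like and cone-like cells. Its estimate reached 100% of the UMIs of cone-like cells in LG5 and 99.6% in bipolar-like cells of LG5 over the graft. In those sums it cannot tell free RNA from the cells' own RNA. The stricter barcode filter gave 12, 68, 39 and 5 genes in Müller glia-like, amacrine-like, bipolar-like and horizontal-like cells, with 2 listed genes in amacrine-like and 0 in bipolar-like cells. Joining clusters 5 and 6 to the Müller glia-like class, an alternative chosen after seeing the data, gave 4 genes. The cause of these shifts was not tested. In Müller glia-like cells the fitted log2 change of the members kept a positive sign in every alternative in which they could be fitted: 1.19 to 2.94 for S100A6, 1.56 to 2.98 for S100A10, 1.23 to 3.17 for S100A11, 1.61 to 2.28 for S100A4, 0.83 to 2.03 for ANXA1, 0.17 to 2.24 for ANXA2 and 0.08 to 0.40 for ANXA5. The members were chosen on this contrast in these libraries, so nothing is read from the shared sign. S100A4 had no fit without LG5, with each barcode gated, under the stricter barcode filter or with free RNA subtracted. ANXA1 had none with free RNA subtracted. S100A10 in rod-like cells ran between -1.47 and 0.74 and in amacrine-like cells between -1.46 and 0.54, the lowest with free RNA subtracted, and S100A6 in horizontal-like cells between -0.41 without LG5 and 3.101 without RC724. Over all the log2 changes and ratios recomputed, those just named included, 46 lost their call, 0 called values changed sign, and 6 changes and 4 ratios of members moved by more than 1 SD between experiments. The counts of S100A4, ANXA1 and ANXA2 limit their precision most: Müller glia-like cells held 0 to 199 UMIs of S100A4, 15 to 341 of ANXA1 and 19 to 301 of ANXA2 per library.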
